A study of Mus musculus with 24 samples.

Results

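NELFB and SPT5 occupancy were compared in control mouse E14 embryonic stem cells, a line kept pluripotent with serum and LIF. Each antibody had 2 ChIP-seq libraries, one pair with an antibody to the HA tag on NELFB and the other with one to DSIF, listed as SPT5. The genotype of every library is labelled Nelfb deg, so the controls also carry the tagged, degradable NELFB, and their treatment is labelled Control; libraries given the degrader dTAG-13 are not analysed here. In each library the regions of the deposited peak list on chromosomes 1 to 19 were ranked by pileup, the mean ChIP coverage of a region, and the 10000 highest were kept. This gave 40000 regions of the 1811308 in the 6 lists used here, and the 2 NELFE libraries, against another subunit of NELF, served as a reference. Rank 1 is the highest pileup. Pileup cannot be compared between libraries of different depth, so all comparisons of strength use ranks.

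RNA polymerase II often stops shortly after it starts a gene, and this pausing sets how fast many genes of stem cells are transcribed. DSIF, made of SPT4 and SPT5, and the NELF complex, which holds NELFB and NELFE, bind the stopped polymerase together. When the kinase P-TEFb phosphorylates them, NELF leaves, while SPT5 stays on the polymerase and travels with it through the gene. SPT5 is also found where RNA polymerase II makes short transcripts that are not polyadenylated, such as the spliceosomal small nuclear RNAs (snRNAs) and the replication-dependent histone mRNAs.

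Sequences are shown for 4 start sites and 2 miRNA clusters on which the results below turn. The first 2, Tra2b and Hnrnpc, encode a splicing regulator and an RNA packaging protein, and their start sites ranked far better with NELFB:HA while the SPT5 regions ran far into the genes. Arid5a, which encodes an RNA-binding regulator of mRNA stability, ranked near the top with both antibodies. H1f3, a linker histone gene, ranked better with SPT5. Each is the 250 bases before the annotated start, 5′ to 3′ on the gene's strand, from RefSeq on GRCm38.p6, the patch release of mm10. Capitals mark TATAAA and CCAAT on either strand.
Tra2b, chr16:22266006-22266255, minus strand: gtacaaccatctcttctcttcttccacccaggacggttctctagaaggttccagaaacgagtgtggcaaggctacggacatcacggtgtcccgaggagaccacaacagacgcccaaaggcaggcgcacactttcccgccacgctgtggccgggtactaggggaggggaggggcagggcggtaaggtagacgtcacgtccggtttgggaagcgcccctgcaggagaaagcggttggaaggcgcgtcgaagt
Hnrnpc, chr14:52104022-52104271, minus strand: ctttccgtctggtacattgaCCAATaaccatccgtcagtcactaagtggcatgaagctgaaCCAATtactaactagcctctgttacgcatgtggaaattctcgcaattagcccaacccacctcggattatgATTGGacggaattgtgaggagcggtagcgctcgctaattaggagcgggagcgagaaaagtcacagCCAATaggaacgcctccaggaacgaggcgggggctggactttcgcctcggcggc
Arid5a, chr1:36307483-36307732, plus strand: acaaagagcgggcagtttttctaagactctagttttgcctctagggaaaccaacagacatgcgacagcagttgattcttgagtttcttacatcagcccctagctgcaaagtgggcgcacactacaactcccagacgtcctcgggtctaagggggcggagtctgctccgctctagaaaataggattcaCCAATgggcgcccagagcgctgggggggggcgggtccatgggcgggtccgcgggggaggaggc
H1f3, chr13:23554782-23555031, plus strand: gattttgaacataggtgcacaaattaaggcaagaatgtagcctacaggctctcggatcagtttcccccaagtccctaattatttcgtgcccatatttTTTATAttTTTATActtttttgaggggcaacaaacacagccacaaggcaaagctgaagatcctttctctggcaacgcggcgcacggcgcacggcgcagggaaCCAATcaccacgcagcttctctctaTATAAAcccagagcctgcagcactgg

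The miRNAs below come from the host transcripts D7Ertd143e and Mir17hg, each of which holds a site called higher in SPT5, and the capitals mark the seed, bases 2 to 8, which pairs with target mRNAs. The first 4 are from the miR-290 cluster, abundant in embryonic stem cells, and the last 2 from the miR-17-92 cluster. The seed AAGUGCU is shared by miR-291a-3p, miR-294-3p and miR-295-3p, and AAAGUGC by miR-17-5p and miR-20a-5p.
miR-290a-3p: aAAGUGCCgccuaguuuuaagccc
miR-291a-3p: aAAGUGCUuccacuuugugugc
miR-294-3p: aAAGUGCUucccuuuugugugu
miR-295-3p: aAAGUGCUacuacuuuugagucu
miR-17-5p: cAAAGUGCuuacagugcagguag
miR-20a-5p: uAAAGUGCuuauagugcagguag

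The libraries differ in ways that run with the antibody. The NELFB:HA libraries held 41312333 and 29656999 filtered tags of 50 bp with an input each, and the SPT5 libraries 27324697 and 62312558 tags of 100 and 101 bp with 1 shared input. The NELFE libraries had 50 bp tags, as NELFB:HA did. Antibody and sequencing batch thus cannot be told apart for SPT5, whether it is set against NELFB:HA or against NELFE. The 10000 regions were 2.93% and 2.26% of the NELFB:HA regions on these chromosomes and 2.19% and 7.34% of those of SPT5. A deposited fold enrichment over input below 2 was found in 560 and 1156 of the NELFB:HA regions and in 1429 and 1541 of the SPT5 regions. Some of the best ranks were such regions: in each library the highest pileup had a fold of 1.09 to 1.73. The last region kept and the first left out had the same pileup in each library (17.46, 13.2, 11.74 and 19.49). Nothing in the labels says that replicates came from separate cultures, so their spread may be technical. No start site of 10 fibroblast feeder markers lay in a site of either antibody, nor did any of 19 lineage regulators that are bivalent in stem cells, such as Gata2 and Pax6.

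NELFB:HA and SPT5 occupied largely the same places. On average 81.4% of NELFB:HA regions overlapped an SPT5 region by at least 1 bp (SD 2.06 over 4 library pairs, 79.3% to 84.1%), and 80.2% of SPT5 regions overlapped one of NELFB:HA (SD 2.15). Replicates of NELFB:HA overlapped by 85.0% and 84.97%, and replicates of SPT5 by 83.9% and 84.3%. One pair, NELFB:HA replicate 1 with SPT5 replicate 2, at 84.1%, thus lay between the replicate values of SPT5. The 4 pairs share libraries and are not independent.

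Sharing depended on rank. Of the regions ranked 1 to 1000, 98.4% and 97.5% of those of NELFB:HA lay in both SPT5 libraries, and 95.7% and 97.8% of those of SPT5 in both NELFB:HA libraries. Between ranks 7501 and 10000 the values were 40.5% and 38.5% for NELFB:HA and 37.0% and 40.7% for SPT5. In that last class 53.5% to 56.2% of regions overlapped the other replicate of their own antibody, so the loss with rank was also seen between replicates.

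**Figure D1:**
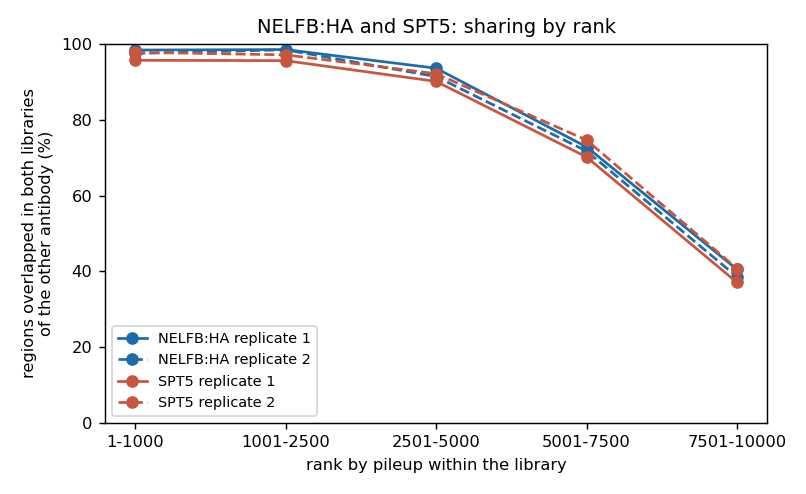
Percent of regions (vertical axis) overlapped in both libraries of the other antibody, by class of rank (horizontal axis), 1 line per library. The 4 lines lie above 90% up to rank 5000 and between 37.0% and 40.7% in the last class.

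Sites found in both replicates of an antibody were then classed. Of 8414 NELFB:HA sites, 7139 (84.8%, 95% Wilson interval 84.1 to 85.6, counting error only) lay in both SPT5 libraries, 794 in 1 and 481 in neither. Of 8246 SPT5 sites, 6998 lay in both NELFB:HA libraries (84.9%), 694 in 1 and 554 in neither. The 7139 are called shared sites below. An annotated start site lay in 75.6% of them, in 57.0% of the 481 NELFB:HA sites without SPT5 and in 28.5% of the 554 SPT5 sites without NELFB:HA.

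SPT5 sites without NELFB:HA lay more often away from start sites, both inside and outside genes. Of the 554, 262 (47.3%) lay in a gene body with no start site, against 31.2% of the NELFB:HA sites without SPT5, and 24.2% lay outside genes, against 11.9%. For 80 of the 262 (30.5%), the start of that gene lay in a NELFB:HA site. The strongest lay in Hnrnpa3, which encodes an mRNA-binding protein, on chromosome 2 from 75669125 to 75674019. It ranked 254 and 126 with SPT5 at folds of 7.17 and 7.42. A fold below 2 in both libraries was found in 25.5% of the SPT5 sites without NELFB:HA and in 9.56% of the NELFB:HA sites without SPT5. Absence from the 10000 was seldom absence from the lists, since 82.5% and 83.0% of these sites had a region in both full lists of the other antibody.

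Sites of 1 antibody without the other were weak by rank, with a median rank of 7767 for NELFB:HA and 7590 for SPT5. The 5 strongest of NELFB:HA lay in gene bodies or outside genes, among them Sfi1 with ranks of 133 and 74 and folds under 2 in both libraries. Among those with a fold of 2 or more, a restriction added after the values were seen, were the start sites of Fam8a1, with NELFB:HA ranks of 1439 and 2230, and Mrpl17, a mitochondrial ribosomal protein gene, with ranks of 4390 and 2333. Start sites of Egr2, an immediate-early transcription factor, and Lef1, a Wnt pathway factor, were in both NELFB:HA libraries but not in both of SPT5. Nanog, a core pluripotency factor, Tet1, a DNA demethylase, and Hspa1a and Hspa1b, near-identical heat shock genes, were in both SPT5 libraries but not in both of NELFB:HA.

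SPT5 regions were not wider in the middle of the distribution, but had a longer tail. The median width was 1947 and 2121.5 bp for NELFB:HA and 2402 and 1953.5 bp for SPT5, and these ranges overlap. The difference of 143.5 bp was within the pooled SD of 240.6 bp (exact two-sided permutation p of 0.667). Its sign turned to −80.8 bp without SPT5 replicate 1. Regions over 5 kb made up 5.45% and 8.92% of NELFB:HA and 19.1% and 14.97% of SPT5 regions. Both SPT5 values lay above both of NELFB:HA, and the difference of 9.87 percentage points exceeded the pooled SD of 2.71 (p = 0.33 by an exact two-sided permutation, which cannot go lower with 2 against 2; 0.5 after adjustment over 6 measures of width). The longest NELFB:HA region was 16769 bp and the longest SPT5 region 64638 bp.

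**Figure D2:**
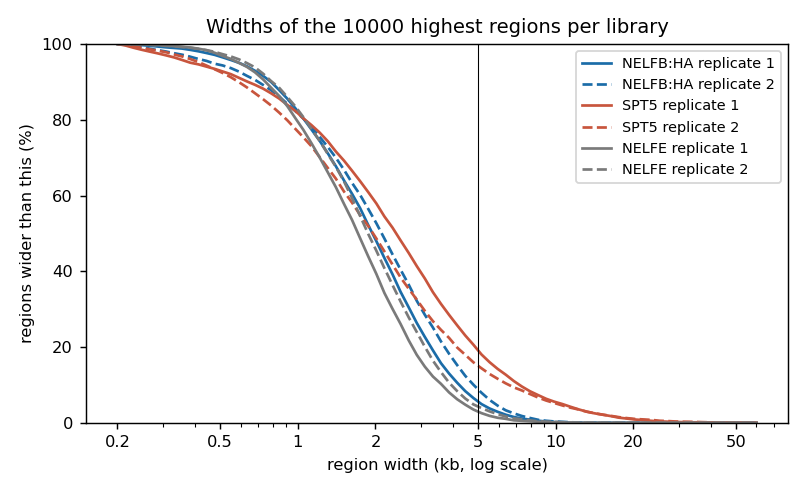
Percent of the 10000 regions (vertical axis) wider than the width on the horizontal axis (kb, log scale), for NELFB:HA, SPT5 and NELFE, 1 line per library. The vertical line marks 5 kb, where the SPT5 lines stand at 19.1% and 14.97% and the NELFB:HA lines at 5.45% and 8.92%.

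At shared sites the same tail appeared on a matched set of loci. Regions over 5 kb lay at 7.54% and 12.05% of the 7139 sites with NELFB:HA and 26.4% and 20.6% with SPT5, a difference of 13.7 points against a pooled SD of 3.66 (p = 0.33 in the same exact test, 0.5 adjusted). The NELFE libraries had 4.94% and 6.49%. Median widths at these sites were 2244 and 2499 bp with NELFB:HA and 3028 and 2373 bp with SPT5. That difference of 329 bp was within the pooled SD of 351.4 bp.

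SPT5 regions extended beyond the NELFB region mainly downstream of start sites. The NELFB region here is the union of both NELFB:HA regions, and reach is the length of the overlapping SPT5 region outside it. The median reach was 594 and 179 bp, and the 90th percentile 5325 and 4973 bp. At the 4140 shared sites whose start sites lie on 1 strand, 28.5% and 23.5% had at least 1 kb downstream and 14.6% and 8.09% at least 1 kb upstream. NELFE regions, measured in the same way, had 5.95% and 7.58% downstream and 5.42% and 7.45% upstream.

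The downstream share thus exceeded the upstream share by 13.9 and 15.4 points for SPT5 and by 0.537 and 0.122 points for NELFE. The SPT5 mean of 14.6 (SD 1.11) exceeded that of NELFE by 14.3 points, with no overlap between the libraries (p = 0.33 by exact permutation, again the floor). With each NELFB:HA library taken alone as the reference, the other NELFB:HA library gave 1.43 and 0.0725 points and the SPT5 libraries 14.7 to 17.3. The SPT5 replicates differed more from each other, with 7.97 points for replicate 2 beyond replicate 1 and 5.39 for the reverse. A downstream reach of at least 1 kb in both SPT5 libraries was found at 644 sites (15.6%), and an upstream reach of that size at 185 (4.47%).

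**Figure D3:**
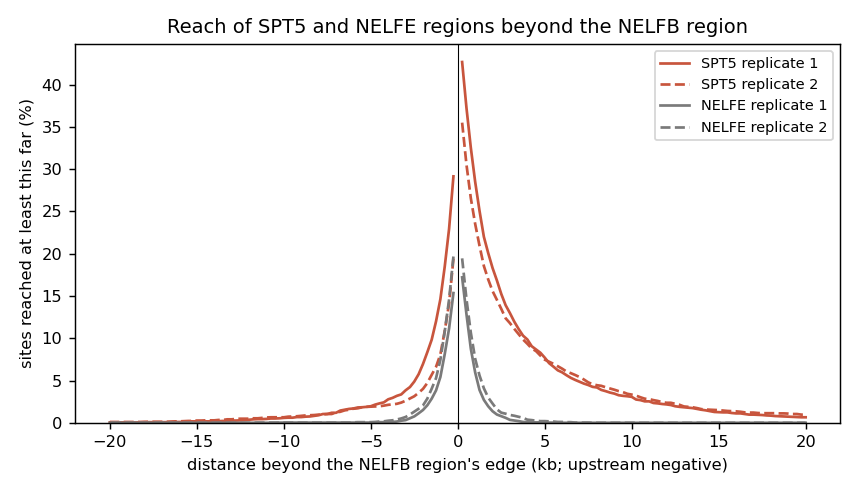
Percent of sites with start sites on 1 strand (vertical axis) at which the region of an SPT5 or NELFE library reaches at least the distance on the horizontal axis beyond the NELFB region (kb, upstream negative). At 1 kb the SPT5 lines stand at 28.5% and 23.5% downstream and at 14.6% and 8.09% upstream, and the NELFE lines between 5.42% and 7.58% on both sides.

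Most of the longest downstream reaches passed the end of the gene. Among sites with 1 to 2 kb downstream, the SPT5 region passed the annotated gene end at 2.25% in each library. With 10 kb or more it did so at 65.6% of 122 and 67.2% of 134 sites. A reach of 5 kb or more in both libraries was found at 475 shared sites (6.65%), of which 273 had start sites on 1 strand. In 216 of those 273 the downstream side was the longer in both libraries, and in 45 the upstream side. At 186 of the 475 an SPT5 region also touched another NELFB site, against 356 of all 7139 shared sites. Long reach there can include the stretch up to and over a neighbouring site.

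Taking the shorter reach of the 2 libraries, the longest was at Dhx9, an RNA helicase gene, with its site on chromosome 1 from 153483398 to 153489475. The SPT5 regions there were 53686 and 45386 bp wide and the NELFB:HA regions 5256 and 5655 bp. Downstream reach was 42910 and 40713 bp, past the gene end at 27642 bp from the site. At Hnrnpc, on chromosome 14 from 52103266 to 52105451, downstream reach was 39475 and 40787 bp against 29889 bp to the gene end. Rbm39, a splicing factor gene, had a downstream reach of 34525 and 34527 bp, and Nop58, a snoRNP core protein gene, 35271 and 33762 bp. The SPT5 regions at Hnrnpc, Rbm39 and Nop58 each touch another NELFB site, while that at Dhx9 does not. Among sites with start sites on 1 strand and an SPT5 region of their own, a restriction added afterwards, Eif2s2, Eif4b, Sfpq and Caprin1 followed Dhx9, whose shorter reach of the 2 libraries was 27370, 24535, 23310 and 22245 bp. Esrrb, an orphan nuclear receptor of naive pluripotency, had 2 NELFB sites in its body under 1 SPT5 region of 41870 and 55117 bp.

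Among pluripotency factors, 10 of 13 with an annotated start were shared sites. SPT5 reached 5 kb or more in both libraries at 8 of the 10, where 6.63% of all shared sites with a start did. Zfp42, a marker of the naive state, had a downstream reach of 19488 and 21489 bp, Tfcp2l1 14007 and 11673 bp and Sox2 10508 and 11109 bp. At Pou5f1, which encodes OCT4, reach was 0 and 1142 bp. Downstream reach of at least 1 kb in both libraries was found at all 7 members with start sites on 1 strand, and upstream reach at 1. None of 5 formative genes at shared sites reached 5 kb in both.

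Ranks of shared sites correlated less between antibodies than between replicates. Spearman's rho over the 7139 sites was 0.786 between the NELFB:HA replicates, 0.669 between the SPT5 replicates and 0.510 to 0.538 across antibodies. These are descriptions across sites, which are not independent, and libraries of an antibody share tag length. Both antibodies placed Arid5a near the top, at ranks 41 and 32 with NELFB:HA and 42 and 20 with SPT5, on chromosome 1 from 36305309 to 36309634. Of the 5 sites with the best mean rank, those in Sfi1 and at chromosome 11 from 54140173 to 54140553 had folds of 1.17 to 1.66 in the 4 libraries, close to input. With a fold of 2 or more in each library, added afterwards, the best start sites were Gm51701, Arid5a, Map2k2 (a MAP kinase kinase) and Mbtps1 (a Golgi protease).

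For each site the ranks were turned into normal scores, on which a difference of 1 is 1 SD of all sites, and tested with limma. At an adjusted p below 0.05, 25 sites (0.35%) ranked better with SPT5 and 36 (0.504%) with NELFB:HA, and 1335 passed an unadjusted p of 0.05. These counts rested on single libraries: without NELFB:HA replicate 1 or replicate 2 both were 0, and without SPT5 replicate 1 they were 77 and 187. Without SPT5 replicate 2 they were 40 and 85. A description that uses no test is therefore given beside them. Both SPT5 ranks were better than both NELFB:HA ranks at 1813 sites (25.4%) and worse at 1718 (24.1%).

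NELFB:HA ranked better at sites under the longest SPT5 regions. Of the 36 sites called higher in NELFB:HA, 35 had an SPT5 reach of 5 kb or more in both libraries, against 6.65% of all shared sites. Their median SPT5 width was 21074.5 and 19325 bp. Of the 36, 30 held a start site (83.3%), against 75.6% of all shared sites. Median ranks were 556 and 405 with NELFB:HA, 708.5 and 685 with NELFE, and 6529 and 7797 with SPT5. Pileup is a mean over the region, so a long region with a peak at its start has a lower mean than that peak. At the 475 sites with a reach of 5 kb or more in both, 66.9% had both SPT5 ranks worse, and at the 3609 with a reach under 1 kb in both, 12.7%. None of the 36 was among those 3609. The part of region length in these ranks was not tested.

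Tra2b shows the pattern. Its site on chromosome 16 from 22263352 to 22266911 ranked 122 and 140 with NELFB:HA and 6061 and 7153 with SPT5. The groups do not overlap, and the difference in normal score was −2.64 (SE 0.340, limma adjusted p of 0.0318). The SPT5 regions were 22120 and 32927 bp wide, against 2726 and 3560 bp for NELFB:HA. Hnrnpc ranked 242 and 285 against 6875 and 7895 (difference −2.59, SE 0.341, limma adjusted p of 0.0335).

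The largest difference in this direction was at the shared promoter of Morc2a and Tug1, a long noncoding RNA, on chromosome 11 from 3645999 to 3650730. It ranked 69 and 150 with NELFB:HA and 6380 and 8085 with SPT5 (difference −2.93, SE 0.362, limma adjusted p of 0.0304). Next came Rfc5, a clamp loader subunit, at 501 and 1152 against 8558 and 9622, and Eif3a, a translation initiation factor, at 582 and 75 against 6927 and 8750. The others named by rule were a site in Hmox1 (heme oxygenase), Snrpe (a core spliceosome protein) and a site between Mcm4 (replicative helicase) and Prkdc (a DNA repair kinase). Srsf3, Eif4b, Btg1, Dhx9, Mdm2 and the start shared by the mitochondrial chaperones Hspd1 and Hspe1 were also called. Mdm2, the ubiquitin ligase of p53, ranked 618 and 961 against 6455 and 7284.

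SPT5 ranked better at snRNA genes. This class was picked after the called sites were seen, since 12 of the 25 sites called higher in SPT5 held a gene that RefSeq classes as snRNA. Of 931 such genes on chromosomes 1 to 19, 51 lay in 47 shared sites. Median ranks there were 2756 and 2391 with NELFB:HA, 3858 and 3760 with NELFE, and 264 and 286 with SPT5. At 35 of the 47 (74.5%) both SPT5 ranks were better, where 25.4% of all shared sites had this order, and at 3 both were worse. SPT5 reach at these sites was short, with medians of 91 and 8 bp. Of the 3609 shared sites with a reach under 1 kb in both libraries, 34.9% had both SPT5 ranks better and 12.7% both worse. The part of region length in the snRNA ranks was not tested. Many of these genes are near-identical copies whose reads cannot be placed with certainty. Tags of 50 and 100 bp differ in how well they place them, and tag length runs with the antibody. NELFB:HA and NELFE had tags of 50 bp, and SPT5 of 100 and 101 bp. The single values are therefore uncertain, and so is the count of 35 of 47, since such copies could shift in the same direction. Several copies also lie close together on a chromosome, so the 47 sites are not independent. The part of tag length in the snRNA ranks was not tested.

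Rnu1a1, a U1 gene of the 5′ splice site particle, lies in a site on chromosome 11 from 87419662 to 87424616. It ranked 2434 and 2783 with NELFB:HA and 55 and 14 with SPT5 (difference 2.13, SE 0.351, limma adjusted p of 0.0488). Its SPT5 replicate 1 region, 6711 bp wide, also gives the neighbouring Gm22068 site its rank, so 2 of the 12 called snRNA sites share a region. Rnu5g, a U5 gene, ranked 1642 and 2252 against 34 and 13. The largest difference among snRNA sites was at Gm26316, with 6808 and 6632 against 36 and 22 (difference 3.22, SE 0.334, limma adjusted p of 0.0274). There the NELFB:HA regions were the wider ones, at 2005 and 1926 bp against 616 and 1215 bp for SPT5. The minor spliceosome RNAs were not alike in this order. Rnu11 ranked 1183 and 763 against 103 and 10, whereas Rnu12 ranked 247 and 345 against 81 and 356, where the groups overlap. Rnu7, which guides the trimming of histone mRNA ends, ranked 2939 and 1298 against 313 and 549. Rn7sk, the RNA polymerase III transcript that holds P-TEFb inactive, ranked 4901 and 7027 against 3193 and 3202.

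Replication-dependent histone genes had the same order of ranks, at a smaller difference. Of 43 listed, 37 had an annotated start, of which 36 lay in 19 shared sites, most of them in the clusters of chromosome 13, and several genes share a site. Both SPT5 ranks were better at 13 of the 19 sites (68.4%) and both worse at none, where 22.9% and 25.1% of shared sites with a start had these orders. None was called by limma in either direction. Median ranks over the 19 sites were 592 and 282 with NELFB:HA and 114 and 88 with SPT5. Median SPT5 reach over the 36 genes was 678 and 453 bp, against 569 and 172 bp at all shared sites with a start. The part of region length in these ranks was not tested. H1f3, on chromosome 13 from 23553198 to 23559427, ranked 137 and 222 with NELFB:HA and 29 and 5 with SPT5 (difference 0.93, SE 0.361, limma adjusted p of 0.218). The wide site of H2ac8 and its neighbours, on chromosome 13 from 23560680 to 23577868, ranked 439 and 388 against 48 and 26. Histone genes resemble each other in coding sequence, and the caution on read placement holds here too.

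**Figure D4:**
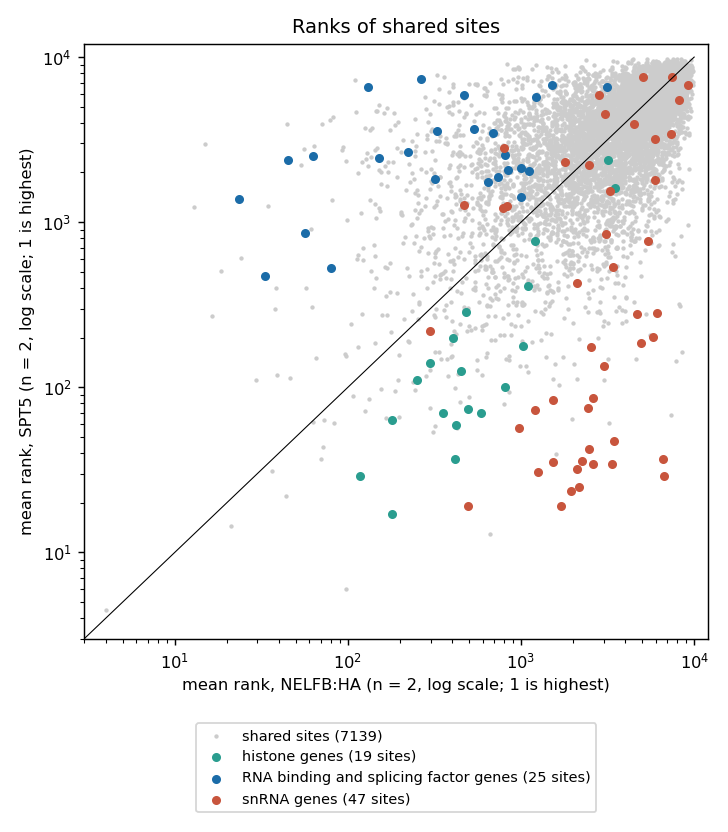
Mean rank with SPT5 (vertical axis, log scale) against mean rank with NELFB:HA (horizontal axis, log scale) at 7139 shared sites, 2 libraries each, with rank 1 the highest pileup and the diagonal marking equal ranks. Most snRNA sites and the 19 histone gene sites lie below the diagonal, where SPT5 ranks better, and the 25 sites of RNA binding and splicing factor genes lie above it.

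The motifs marked in the printed windows were also counted over gene groups. Within 250 bases before the start, 21 of 36 histone genes (58.3%) hold TATAAA on either strand and 29 (80.6%) hold CCAAT. Of all 25748 genes on these chromosomes with a start in the table, 12.98% hold TATAAA and 34.3% CCAAT, and of the 6722 at shared sites 5.59% and 37.2%. Among the 25 RNA binding and splicing factor genes, 3 hold TATAAA and 13 CCAAT. The H1f3 window holds TATAAA 3 times and those of Tra2b, Hnrnpc and Arid5a not at all. CpG dinucleotides number 19 in the Tra2b window, 17 in Hnrnpc, 13 in Arid5a and 10 in H1f3. A match of letters is a description and not a bound site.

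Both miRNA hosts were among the 25 sites called higher in SPT5. The site of D7Ertd143e, on chromosome 7 from 3216258 to 3223617, holds the miR-290 cluster, and the 8 hairpins of it that the table lists lie inside both SPT5 regions. It ranked 3531 and 2921 with NELFB:HA and 105 and 17 with SPT5 (difference 2.16, SE 0.368, limma adjusted p of 0.0488). Mir17hg needs care. The site called, on chromosome 14 from 115044601 to 115049306, ranked 9098 and 7810 with NELFB:HA, at folds of 1.62 and 1.72, and 236 and 92 with SPT5. The same SPT5 regions, 14913 and 12668 bp wide, also cover a second NELFB site just upstream, from 115039803 to 115043285, which ranked 145 and 491 with NELFB:HA. The 6 hairpins of the miR-17-92 cluster lie between those sites, inside both SPT5 regions and in neither NELFB site. At all 74 shared sites that hold a miRNA gene, 23.0% had both SPT5 ranks better and 21.6% both worse, near the 25.4% and 24.1% of all shared sites.

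The remaining sites called higher in SPT5 were of mixed kind. They included a site in the body of Klf5, a factor of naive pluripotency, at 8002 and 8898 against 1548 and 1950 with NELFB:HA folds of 1.59 and 1.63, under SPT5 regions of 29605 and 30026 bp that also touch another NELFB site, and Snord13, a small nucleolar RNA, at 6575 and 4565 against 328 and 89. Members of repeated gene families also appeared, such as Vmn2r29 (a vomeronasal receptor) and Zfp993 (a zinc finger gene), again with near-identical copies elsewhere. The order was not limited to snRNA and histone genes. Of the 284 shared sites outside genes, 54.9% had both SPT5 ranks better and 8.45% both worse. Their median NELFB:HA ranks were weak, at 6671.5 and 5910.5. Sites at genes that RefSeq classes as snoRNA, which mostly sit in introns of host genes, had another order than the snRNA sites. Of all 62, Snord13 included, 48.4% had both SPT5 ranks worse and 22.6% both better, with a median reach of 5280 and 5411 bp. This contrast is one of RefSeq classes. The snRNA class also holds the genes of U3, a nucleolar RNA (Rnu3a, Rnu3b1, Rnu3b2, Rnu3b3 and Rnu3b4). Both SPT5 ranks were better at each of their sites.

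Gene lists were looked up by start site: of 375 entries in 13 lists, 280 had a start in the table and 95 could not be placed. They were set against the 22.9% (both SPT5 ranks better) and 25.1% (both worse) of the 5399 shared sites with a start. The lists were chosen with earlier results of these data known, so their shares are descriptions and not independent support. Lists with many long reaches are also to be read beside the 475 shared sites with a reach of 5 kb or more in both libraries. Of those 475, 66.9% had both SPT5 ranks worse and 16.2% both better. All 25 RNA binding and splicing factor genes were shared; both SPT5 ranks were worse at 22 and better at none, 19 had a reach of 5 kb or more in both libraries, and Tra2b, Hnrnpc and Srsf3 were called higher in NELFB:HA. Ddx5, an RNA helicase gene with the best mean rank of the list, ranked 44 and 22 against 421 and 522. Hnrnpm was nearest to equal, at 816 and 1170 against 1275 and 1557. Of 54 ribosomal protein genes at shared sites, 34 (63.0%) had both SPT5 ranks worse and 6 both better, and 32 had a reach of 5 kb or more in both. Of the 2 with a reach under 1 kb in both, 0 had both SPT5 ranks worse. None was called by limma. Rps3a1 ranked 171 and 575 against 4805 and 5221, and Rpl41, with SPT5 reach of 0 and 182 bp, 1356 and 1689 against 145 and 79.

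Immediate-early, heat shock and p53 pathway genes, many of them known for strong pausing, were described as 3 separate lists. Of 16 immediate-early genes at shared sites, 10 had both SPT5 ranks worse and 1, Srf, both better; none was called. Dusp1, a MAP kinase phosphatase, ranked 303 and 81 against 2397 and 3218, and Fos 1217 and 2199 against 2644 and 3610. Of 13 heat shock and chaperone genes, 8 had both SPT5 ranks worse and 2 both better, with Hspd1 and Hspe1, which share 1 site, the 2 that were called. Of 14 p53 pathway genes, 7 had both worse and 3 both better, and Mdm2 was called. Trp53 itself ranked 1723 and 1779 against 483 and 670, and Bax, a cell death effector, 1900 and 1144 against 227 and 526.

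Genes of the pausing machinery itself stood near the shares of all start sites. All 23 with an annotated start were shared sites, and none was called. Both SPT5 ranks were better at 6 (26.1%) and worse at 4 (17.4%), against 22.9% and 25.1% of all shared sites with a start. None of the 23 had a reach of 5 kb in both libraries. Polr2a, the largest subunit of RNA polymerase II, ranked 18 and 15 with NELFB:HA and 80 and 462 with SPT5, and Supt5, the gene of SPT5, 1565 and 411 against 116 and 152. Housekeeping genes with high transcription, 31 in all, had 14 worse and 8 better, and 17 with a reach of 5 kb or more in both. Among them Hmgn2, a nucleosome-binding protein gene, ranked 90 and 98 against 2610 and 3096, while Actg1, a cytoplasmic actin gene, ranked 1394 and 643 against 214 and 165 despite a reach of 6802 and 7215 bp. Of 7 noncoding RNA host genes, too few for a share to be read, 3 were better and 3 worse, with Malat1 at 206 and 540 against 199 and 99. The SPT5 region of Malat1 also covers a second NELFB site on chromosome 19 from 5808827 to 5812426, with NELFB:HA ranks of 4764 and 4520, which was 1 of the 25 called higher in SPT5.

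**Figure D5:**
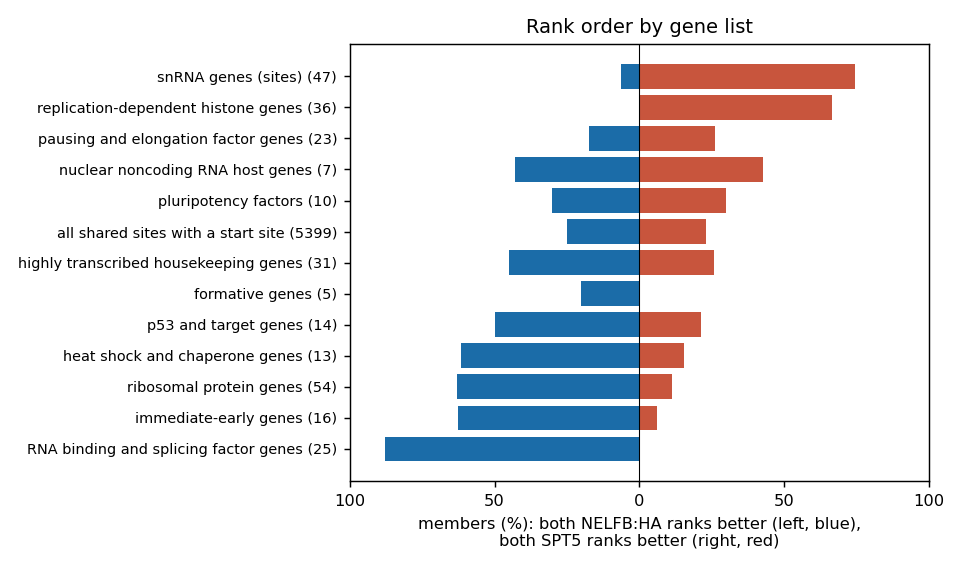
Percent of the members of each list (number in brackets) with both NELFB:HA ranks better (blue, to the left) or both SPT5 ranks better (red, to the right). RNA binding and splicing factor genes stand at 88.0% on the left, snRNA sites at 74.5% and histone genes at 66.7% on the right, and all shared sites with a start at 25.1% and 22.9%.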

How the data were processed

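ChIP-seq regions of 4 control libraries (2 NELFB:HA, 2 SPT5) and 2 NELFE libraries were used. Per the file headers, the authors called broad regions with MACS 2.1.1.20160309 for each library against input, at p-value cutoffs of 0.01 and 0.1 with at most 1 tag per position. Per the submitters' processing notes, Bowtie2, deepTools and MACS2 were used with mm10; the read filters are not given in the sources used here. The deposited pileup signal is mean coverage, the deposited fold enrichment a ratio to local background, and the deposited −log10 columns, of a p-value and a q-value, are as MACS wrote them.

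Regions on chromosomes 1 to 19 were ranked by pileup, ties in deposited order, and the 10000 highest kept. Start sites came from RefSeq on GRCm38.p6, for 25748 of 47042 genes; 374 genes in 13 lists were looked up. Ranks were tested as normal scores with limma 3.58.1 in R 4.3.3 over all shared sites, with Benjamini-Hochberg adjustment at 0.05, and library values with exact two-sided permutation tests. The scripts were tested on simulated data. Sites were named by rank, reach, limma call or list extremes. Members and lists were chosen with earlier results of these data known. Same-numbered libraries did not deviate together (correlation −0.0168), so numbers were not used as pairs.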

Additional observations from a re-analysis of the deposited data

How the results depend on the processing

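The share of long regions (SPT5 minus NELFB:HA) kept its direction in all alternatives run (6.31 to 11.9 points), and the downstream excess of SPT5 reach did so too, at 12.3 points with 20000 regions per library, 17.1 with 5000, 17.2 with the intersection as the NELFB region and 16.6 ranked by fold (13.4 to 15.6 leaving out a replicate). The difference in median width reversed to −20.8 bp when ranked by fold and ranged from −80.8 bp (without SPT5 replicate 1) to 367.8 bp leaving out a replicate, and the cause was not tested. Median reach was 1214 bp with the intersection and 841 bp with the replicate block (152 to 852 bp leaving out a replicate), larger by construction where the NELFB region is smaller. Mean overlap of NELFB:HA by SPT5 was 62.6% with 20000 regions, 75.1% with 5000, 78.4% with overlap of 50% of the shorter region, 75.7% at a deposited q-value of 0.01 or less, 78.8% ranked by p and 69.3% ranked by fold. In the same order, NELFB:HA sites in both SPT5 libraries were 80.4%, 70.8%, 80.8%, 77.0%, 84.0% and 77.3%, and 83.3% with folds of 2 or more (74.9% to 91.4% leaving out a replicate). SPT5 sites in both NELFB:HA libraries were 79.0%, 73.9%, 80.1%, 91.5% and 87.1% (by fold it moved too little to list), and 87.1% with folds of 2 or more (73.2% to 90.04%).

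Counts of sites called by limma moved most. Higher in SPT5 and in NELFB:HA they were 6 and 0 with 20000 regions, 0 and 0 with 5000, 89 and 77 ranked by p, 2 and 0 ranked by fold, 6 and 6 at sites with an SPT5 region of their own, 65 and 83 with folds of 2 or more, and 11 and 0 at sites with a reach under 1 kb. With log2 ranks 39 were higher in SPT5, and with X and Y 21 in NELFB:HA. The replicate block gave 207 and 273, although the numbers do not pair the libraries. Leaving out a replicate gave 0 to 77 and 0 to 187, a lone library being assumed to vary like the others. Where limma called 0, 106 to 868 sites passed an unadjusted p of 0.05 in that direction. The 16 sites named by limma call kept their direction in the 166 alternatives where they still overlapped a shared site. They lost the call in 59. These sites were picked for large differences in the same libraries, so the kept direction is no independent check. Both SPT5 ranks were better at 70% to 86.7% of snRNA sites in all alternatives run. The alternatives use the same libraries, so tag length still runs with the antibody in them. For ribosomal protein genes, both SPT5 ranks were worse at 48.1% (ranked by fold) to 74.1%, except 0 at sites with a reach under 1 kb. Restrictions to folds of 2 or more and to short reach were chosen after seeing the data.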
